A study of Mus musculus with 18 samples.

Results

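The genes that commit a neuron to GABA, glycine or glutamate as its fast transmitter were followed through the differentiation of mouse ES cells into motor neurons. The set holds 6 genes of synthesis and transport, namely Gad1, Gad2, Slc32a1, Slc6a5, Slc17a6 and Slc17a7, of the 18193 genes that the arrays measured. Its members were chosen by name, as the probe sets that the probe-to-gene table assigns to 1 of these symbols and to no other. All 6 genes were represented, by 13 probe sets in all, and 0 probe sets that carry several symbols held a member.

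HBG3 is a single mouse ES cell line with a GFP reporter under the control of the motor neuron gene Hb9 (Mnx1), and RNA was taken from whole cultures or embryoid bodies without sorting. The 18 arrays cover ES cells on day 0 (3 arrays), embryoid bodies on day 2 before patterning (4 arrays), day 2 embryoid bodies exposed to retinoic acid (RA) for 8 h (2 arrays), neural precursors on day 3 (3 arrays), progenitor motor neurons on day 4 (3 arrays) and postmitotic motor neurons on day 7 (3 arrays). Embryoid bodies were patterned from day 2 with RA and a hedgehog agonist, although only RA is named for the 8 h arrays, and no array was made at 8 h without RA. The replicate numbers of the day 7 arrays are 3, 4 and 5. The methods describe biological replicates of each time point. All of these cultures come from the same line, so the errors describe the spread between cultures of HBG3 only.

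GABA is made from glutamate by the glutamic acid decarboxylases GAD67 (Gad1) and GAD65 (Gad2), and both GABA and glycine are loaded into synaptic vesicles by the vesicular inhibitory amino acid transporter VGAT (Slc32a1). Glycinergic neurons of the spinal cord and brainstem also carry the plasma membrane glycine transporter GlyT2 (Slc6a5), which keeps the terminal supplied with glycine. Glutamate is packed into vesicles by VGLUT1 (Slc17a7) and VGLUT2 (Slc17a6), and VGLUT2 is the form known from most excitatory interneurons of the spinal cord, from brainstem neurons and, at lower levels, from motor neurons. The main transmitter of motor neurons is acetylcholine, which is made by choline acetyltransferase (Chat) and packed by the vesicular acetylcholine transporter (Slc18a3).

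The members lie on 2 chromosomes of the GRCm38.p6 assembly in RefSeq. Gad2 (chr2:22621015-22693877), Gad1 (chr2:70561303-70602014) and Slc32a1 (chr2:158607260-158615747) are far apart on chromosome 2, and Slc17a7 (chr7:45163921-45176139), Slc6a5 (chr7:49906984-49963864) and Slc17a6 (chr7:51621830-51671126) lie on chromosome 7. Slc6a5 and Slc17a6 are the closest of these, with 1657965 bases between them. The probe sets match transcripts by symbol, so their own positions were not used here.

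The 250 bases upstream of the first start site in the RefSeq table (GRCm38.p6) are shown for the 2 vesicular glutamate transporters, because 1 of them came on during differentiation and the other stayed under the background level. Capitals mark the E-box, the CANNTG hexamer that basic helix-loop-helix factors such as the proneural proteins can bind.
Slc17a6, chr7:51621580-51621829, plus strand: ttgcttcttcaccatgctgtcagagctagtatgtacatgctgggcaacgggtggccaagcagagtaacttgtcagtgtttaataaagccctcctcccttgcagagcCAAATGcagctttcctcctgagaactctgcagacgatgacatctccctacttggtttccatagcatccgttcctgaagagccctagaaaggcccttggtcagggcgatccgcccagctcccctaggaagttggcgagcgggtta
Slc17a7, chr7:45163671-45163920, plus strand: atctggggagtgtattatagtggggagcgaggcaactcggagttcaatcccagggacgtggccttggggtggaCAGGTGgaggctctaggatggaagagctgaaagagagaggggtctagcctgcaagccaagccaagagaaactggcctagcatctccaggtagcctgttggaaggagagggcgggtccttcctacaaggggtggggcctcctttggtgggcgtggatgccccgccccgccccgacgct

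Each of these windows held 1 CANNTG, 144 bases upstream of the start site for Slc17a6 and 177 for Slc17a7, counted to its first base. The windows otherwise differed in composition, with a GC content of 53.2% and 7 CG dinucleotides for Slc17a6 and of 61.2% and 9 for Slc17a7, against medians of 52.4% and 6 over 32851 RefSeq windows of the same length.

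For the 4 inhibitory members only the 30 bases around each E-box are shown, because the table's start sites lie inside the annotated gene. They are given since the members' signals were high on the same day 7 array, as described further on. Capitals again mark CANNTG.
Gad1, chr2:70562013-70562042, plus strand: gaggcagtcagaCACCTGcaaaggagcccc
Gad2, chr2:22622239-22622268, plus strand: ctccctcccccgCATCTGactcgcacctca
Slc32a1, chr2:158610513-158610542, plus strand: tctagagactctCACCTGtctgtcctgttg
Slc32a1, chr2:158610709-158610738, plus strand: ccagaaatgcagCACTTGgggggcccccac
Slc6a5, chr7:49910092-49910121, plus strand: agtaatcagaccCACATGagtcacgccaaa

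All 6 upstream windows thus held a CANNTG, which 66.2% of all windows held on either strand. The E-box CAGCTG, in 13.0% of all windows, was in 0 of the 6. Of the half-sites of the element bound by REST, a repressor of neuronal genes in cells that are not neurons, CAGCACC (5.73% of all windows) was in 0 of the 6, while GGACAG (18.7%) stood 2 times in the Gad2 window and 1 time each in those of Slc32a1 and Slc17a7. TATAAA, present in 12.4% of all windows, was in the Gad1 window only. Direct repeats of AGGTCA with 5 or 2 bases between (DR5 and DR2, the forms known to bind retinoic acid receptors) were in 0 of the 6 and in 0.00913% of all windows each. The windows of Gad1, Gad2 and Slc32a1 held 17, 13 and 12 CG dinucleotides, all above the median of 6. These matches are descriptions of the letters in 250 bases and were not tied to the signals by any test.

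The measurement is the deposited GCRMA signal of each probe set on the log2 scale, in which a step of 1 is a doubling. A signal of 4 was used as the background level, and each array had between 55.2% and 56.9% of its probe sets below that level. Levels are compared between stages for 1 probe set at a time, since the brightness of different probe sets does not rank their transcripts. Summed signals of a marker list add the log2 signals of the brightest probe set of each gene and serve to set arrays side by side. A gene was called when any of its probe sets had a limma adjusted p under 0.01 together with a 2-fold or larger change. Folds against a group whose arrays were all below 4 are minimum values, computed as if that group had a mean of 4, and log2 fold changes from such a group are fitted differences that depend on the floor of the scale.

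The labelled stages had some of their markers over background, and these were not all confined to a single stage. The pluripotency genes Pou5f1 and Nanog lay at 11.78 or above on all day 0 arrays, Fgf5 of the epiblast lay between 8.92 and 9.41 on the day 2 arrays, Pax6 of neural precursors between 11.35 and 11.59 on day 3 and Olig2 of motor neuron progenitors between 11 and 11.29 on day 4. On day 7 the motor neuron genes Isl1 (11.43, 11.51 and 11.79) and Mnx1 (5.67, 6.84 and 7.44) were above background on all arrays, whereas Chat lay under 4 on every array of the series. From day 0 to day 2 Pou5f1 and Nanog were not called lower by limma. All 4 ES cell markers were still over background on every day 2 array. Isl1 was already called higher from day 3 to day 4. Its brightest probe set was not called from day 4 to day 7 (log2 fold change 0.77, limma adjusted p = 0.23). Among the day 7 arrays replicate 5 stood apart: its correlation with replicates 3 and 4 over all probe sets was 0.985 and 0.981, against 0.995 between these 2, and 996 genes (5.47%) lay at 4 or above and at least 2-fold above both other day 7 arrays, against 63 genes (0.346%) for replicate 3 and 82 genes (0.451%) for replicate 4. The results of the transmitter genes are therefore given with and without it. The same holds for the day 4 to day 7 counts given below for lists that held called genes.

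Before day 7 the transmitter genes were at background. Of 234 signals (13 probe sets on 18 arrays) 12 reached 4, and 10 of these came from day 7. The other 2 were signals of Gad1 in ES cells. In all, 6 probe sets of 5 genes reached 4 on at least 1 array, and 7 probe sets stayed under it throughout, among them the only probe set of Slc17a7. In bulk RNA, fewer cells of a type and less RNA per cell cannot be told apart.

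**Figure D1:**
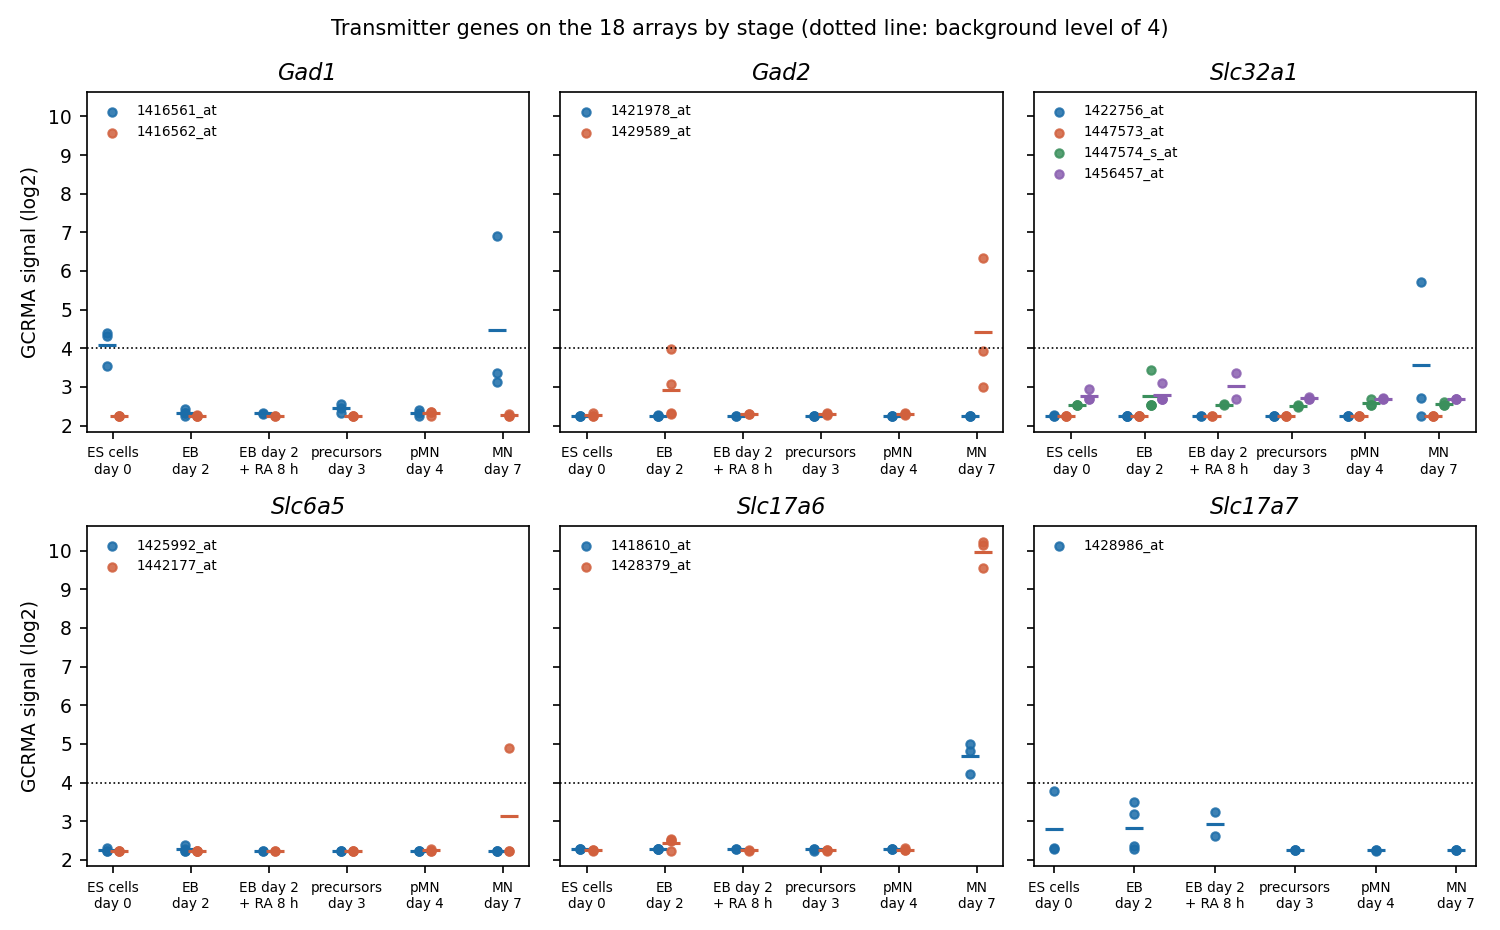
GCRMA signal (log2) of every probe set of the 6 transmitter genes on each of the 18 arrays (points), by stage, with dashes for group means and a dotted line at the background level. Slc17a6 lay at 9.55 or above in probe set 1428379_at on all 3 day 7 arrays, whereas Gad1, Gad2, Slc32a1 and Slc6a5 each had 1 day 7 array (replicate 5) at 4.90 or above and Slc17a7 stayed under 4.

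Slc17a6, the gene of VGLUT2, was the member that rose. Its probe set 1428379_at read 2.25, 2.24 and 2.25 in ES cells, 2.53, 2.52, 2.24 and 2.50 on day 2, 2.24 and 2.25 after 8 h of RA, 2.25, 2.25 and 2.24 on day 3, and 2.30, 2.25 and 2.25 on day 4. On day 7 it read 10.23, 9.55 and 10.14 (replicates 3, 4 and 5). The day 7 arrays did not overlap with any earlier array, and replicate 5 lay between the other two. From day 4 to day 7 the mean went from 2.26 ± 0.03 to 9.97 ± 0.37 (SD, n = 3 each), a log2 fold change of 7.71 (SE 0.13, limma adjusted p = 2e-13), which is at least 62.9-fold. The SEs and p-values of Slc17a6, here and below, use a spread pooled over all stages. Before day 7 the signals lay at the floor, with an SD of 0.14 or less in 1428379_at. The SE is thus too small for the spread between day 7 cultures.

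The second Slc17a6 probe set, 1418610_at, changed the same way. It lay between 2.24 and 2.29 on all arrays up to day 4 and at 5.0, 4.23 and 4.82 on day 7. Its log2 fold change from day 4 to day 7 was 2.40 (SE 0.13, limma adjusted p = 3.3e-08), or at least 1.61-fold. With all signals under 4 raised to 4 that change was 0.68, under the 2-fold limit, so the call of Slc17a6 then rested on 1428379_at alone (5.97).

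The call of Slc17a6 was kept under every alternative that was run. Without day 7 replicate 5 the log2 fold changes of Slc17a6 were 7.63 and 2.33, and without replicate 4, the dimmest of the 3, they were 7.92 and 2.62. Against ES cells the change of 1428379_at was 7.73 (SE 0.13, limma adjusted p = 1.7e-13), again at least 62.9-fold. The ES cell and day 4 comparisons share the day 7 arrays, so they are not independent.

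Slc17a7, the gene of VGLUT1, did not reach the background level at any stage. Its probe set read 3.79, 2.29 and 2.32 in ES cells, 2.36, 2.27, 3.49 and 3.19 on day 2, and 3.24 and 2.62 after 8 h of RA. It read 2.24 or 2.25 on all 9 arrays from day 3 on. These later values lie at the floor of the GCRMA scale (2.24), and the scattered higher values before day 3 were all under background. The day 3 arrays lay below the day 2 arrays without overlap (log2 difference -0.58, SE 0.36, limma adjusted p = 0.49), and from day 4 to day 7 the difference was 0.00 (SE 0.38).

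Gad1, the gene of GAD67, was above background at both ends of the series and not between. Probe set 1416561_at read 4.39, 3.55 and 4.33 in ES cells and then 2.42, 2.32, 2.34 and 2.25 on day 2, 2.30 and 2.34 after 8 h of RA, 2.55, 2.46 and 2.34 on day 3, and 2.40, 2.24 and 2.34 on day 4. On day 7 it read 3.14 and 3.37 on replicates 3 and 4 and 6.91 on replicate 5. All 3 day 7 arrays lay above all day 4 arrays, but only replicate 5 lay over background.

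From day 4 to day 7 the log2 fold change of Gad1 was 2.14 (SE 0.71, limma adjusted p = 0.051), at least 1.39-fold, and it was not called. Without replicate 5 it was 0.93 (SE 0.19, limma adjusted p = 0.0047), which passes the p threshold and misses the 2-fold limit. Without replicate 3 it was 2.81 (adjusted p = 0.015) and without replicate 4 it was 2.70 (adjusted p = 0.026). Against ES cells the day 7 mean of Gad1 differed by 0.38 (SE 0.71, adjusted p = 0.91).

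The early Gad1 signal left the ES cell arrays separated from day 2: the log2 difference between day 2 and day 0 was -1.76 (SE 0.66, limma adjusted p = 0.19), with no overlap of the 7 arrays. It was not called. Of 6 fibroblast markers 1 (Col1a1) was called lower on day 2 than on day 0 and 5 were not called, with a summed signal between 25.4 and 35.0 on day 0 and between 16.8 and 20.6 on day 2. Col1a1, a main collagen of fibroblasts, read 8.76, 9.62 and 11.58 on the 3 ES cell arrays, an order that Gad1 did not share, and the part of such cells in the Gad1 values was not tested. The second Gad1 probe set, 1416562_at, stayed between 2.26 and 2.36 on all arrays, so the probe sets of Gad1 disagree and its values rest on 1 of them.

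Gad2, the gene of GAD65, followed the same day 7 pattern. Probe set 1429589_at read 2.24, 2.24 and 2.32 in ES cells and 3.07, 3.98, 2.30 and 2.32 on day 2, so that day 2 replicate 2 came close to the background level. It lay between 2.27 and 2.32 on all arrays of the 8 h RA, day 3 and day 4 stages. On day 7 it read 3.01, 3.94 and 6.33, and again only replicate 5 was over 4.

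The log2 fold change of Gad2 from day 4 to day 7 was 2.13 (SE 0.64, limma adjusted p = 0.033), at least 1.35-fold, and was not called at 0.01. It was 1.18 (adjusted p = 0.074) without replicate 5 and 2.84 (adjusted p = 0.0051) without replicate 3, where Gad2 was called. Against ES cells it was 2.17 (SE 0.64, adjusted p = 0.02). The other Gad2 probe set, 1421978_at, read between 2.24 and 2.27 on all 18 arrays.

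Slc32a1, the gene of VGAT, had a signal over background on 1 array. Of its 4 probe sets, 1422756_at read between 2.24 and 2.27 on all arrays up to day 4 and 2.24, 2.72 and 5.72 on day 7. The log2 fold change was 1.33 (SE 0.62, limma adjusted p = 0.18) with all arrays and 0.25 (adjusted p = 0.097) without replicate 5. The remaining probe sets stayed under 4 on every array: 1447573_at read 2.24 throughout, 1447574_s_at lay between 2.47 and 3.43, and 1456457_at lay between 2.69 and 3.36 (day 7 minus day 4 -0.01, SE 0.14). The values of Slc32a1 therefore rest on 1 probe set of 4.

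Slc6a5, the gene of GlyT2, was likewise over background on day 7 replicate 5 alone. Probe set 1442177_at read 2.24 to 2.27 on all arrays up to day 4, 2.24 on day 7 replicates 3 and 4, and 4.90 on replicate 5. Its log2 fold change from day 4 to day 7 was 0.88 (SE 0.50, limma adjusted p = 0.31) with replicate 5 and -0.01 (adjusted p = 0.76) without it. The other probe set, 1425992_at, lay between 2.24 and 2.38 throughout.

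In the limma test 1 of the 6 members was thus called higher from day 4 to day 7, and 0 were called lower, while 3 members (Gad1, Gad2 and Slc17a6) had an unadjusted p under 0.05 in at least 1 probe set. Over all genes 10.9% were called higher in that comparison, 8.17% lower and 19.0% in either direction. Between day 7 and day 0 the count was again 1 of 6, against 17.0% of all genes called higher, 16.4% lower and 33.1% in either direction. In the 4 earlier limma comparisons 0 members were called, where 4.47% of all genes were called between day 0 and day 2, 0.434% after 8 h of RA, 7.71% between day 2 and day 3 and 1.42% between day 3 and day 4. At an unadjusted p under 0.05 in the same limma fit, 1 member (Gad1) would pass from day 0 to day 2, 0 after RA, 0 from day 2 to day 3 and 1 from day 3 to day 4, the last being a change of 0.06 in Gad1 probe set 1416562_at at the floor of the scale. The fit with the replicate number as a block called 0 of all 18193 genes in each of these 4 comparisons. Its result for the members therefore adds nothing.

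**Figure D2:**
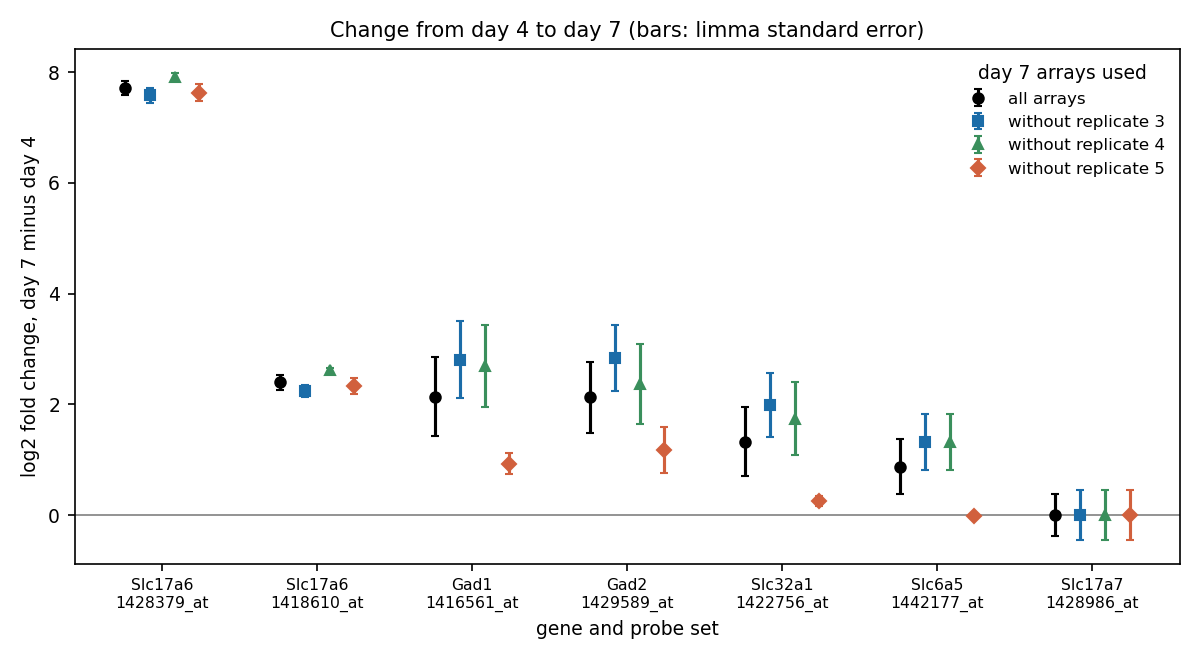
Log2 fold change from day 4 to day 7 (points, with limma's standard error as bars) for 7 probe sets of the transmitter genes, with all arrays and with each day 7 array left out in turn. The changes of Slc17a6 hardly moved (7.58 to 7.92 in 1428379_at), whereas without replicate 5 those of Gad1 and Gad2 were 0.93 and 1.18 and those of Slc32a1 and Slc6a5 were 0.25 and -0.01.

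The day 7 values of the inhibitory members thus rested on replicate 5. Gad1, Gad2, Slc32a1 and Slc6a5 were all among the 996 genes that lay at 4 or above and at least 2-fold above both other day 7 arrays, and Slc17a6 and Slc17a7 were not. With 1 array in question there is no replicate of this pattern, so no test was made. The members' mutual order on the array cannot be read, since probe sets differ in brightness.

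Markers of other neurons differed between the 3 day 7 arrays as well. Of 9 measured genes of inhibitory spinal interneurons 4, 4 and 5 lay at 4 or above on replicates 3, 4 and 5, with summed signals of 40.7, 43.2 and 48.3 (31.3 to 34.4 on day 4). Lhx1, of several inhibitory classes, read 8.01, 8.97 and 10.33, and Tal1, of the V2b class, read 5.32, 6.68 and 9.18. Gata2 (8.55, 8.36 and 8.80) and Gata3 (6.89, 6.87 and 5.66), which share that class, did not follow this order. Ptf1a, Pax8, En1 and Lhx5 stayed under 4 on all 3 arrays. Foxd3, the remaining measured gene, reached 4 on replicate 5 only, and its log2 fold change from day 4 to day 7 was 0.06 (not called). Pax2, also a marker on this list, was not among the measured genes.

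Of the 9 inhibitory markers 3 rose from day 4 to day 7, namely Gata2 (log2 fold change 2.64, limma adjusted p = 5e-04), Gata3 (4.10, at least 5.55-fold, adjusted p = 1.5e-05) and Lhx1, beside a list median of 0.24 and an all-gene median of 0.00. Lhx1 passed in probe set 1421951_at, whose day 4 arrays all lay at 2.36 (2.46, at least 1.76-fold, adjusted p = 0.0018), and its brightest probe set was not called (1.76, adjusted p = 0.055). Without replicate 5 the count was again 3, and the change of Lhx1 in 1421951_at was 1.88 (adjusted p = 0.004). Gata2 and Gata3 were thus well above background on the 2 day 7 arrays on which the 4 inhibitory transmitter genes were not. Of 5 measured markers of forebrain GABA neurons 0 were called by limma (0 at an unadjusted p under 0.05), and 1 (Dlx2, 4.43) reached 4 on replicate 5.

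Among the excitatory interneuron markers, Sim1 and Lmx1b were lower on replicate 5 than on the other day 7 arrays. Of 12 measured genes 3, 3 and 1 lay at 4 or above on replicates 3, 4 and 5, with summed signals of 41.5, 38.6 and 31.5. Sim1, of the V3 class, read 8.47, 7.47 and 2.58, Lmx1b, of a dorsal class, read 5.95, 4.12 and 2.43, and Pou4f1 read 6.89, 6.84 and 6.14. The other 9 lay under 4 on all 3 arrays, and no test compared single arrays. Slc17a6 did not share the low value of Sim1 on replicate 5. Of the 12 genes 0 were called by limma from day 4 to day 7 (2 at an unadjusted p under 0.05), and the log2 fold change of Sim1 was 3.94 (adjusted p = 0.015), at least 4.52-fold. Without replicate 5 the count was 2, with Sim1 at 5.74 (adjusted p = 4.8e-10), at least 15.7-fold, and Lmx1b at 2.53 (adjusted p = 6.7e-04), at least 2.05-fold. Of the 4 measured markers of forebrain glutamate neurons 0 were called by limma (0 at an unadjusted p under 0.05) and 0 reached 4 on a day 7 array.

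Glial genes also differed between the day 7 arrays. Of 7 measured markers 5, 5 and 6 lay at 4 or above on replicates 3, 4 and 5, with summed signals of 44.1, 47.3 and 54.9 against 27.6 to 29.7 on day 4. Sox10, of the oligodendrocyte lineage and neural crest, read 6.88, 9.04 and 11.05, and Mbp of myelin read 7.23, 9.76 and 11.69 in probe set 1433532_a_at. S100b read 2.24, 2.30 and 6.35, and was over background on replicate 5 only, as the inhibitory members were. Gfap, the defining gene of mature astrocytes, stayed at 2.24 on all 3 arrays. Sox10, Mbp, Fabp7 and Aqp4 rose from day 4 to day 7 (4 of 7, list median 1.92), also without replicate 5, where 10.9% of all genes were called higher with all arrays and 9.93% without it. Aqp4 did not share the order of Sox10 and Mbp. Its change was 1.92 (limma adjusted p = 0.0077) with all arrays and larger without replicate 5 (2.34, adjusted p = 0.0027). That of Fabp7 hardly moved (5.29 with all arrays and 5.22 without replicate 5). Mbp rose in 5 of its probe sets, and its brightest probe set was not called (0.35, adjusted p = 0.66).

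General neuronal genes had like sums on the 3 day 7 arrays, and the sum of motor neuron genes was lowest on replicate 3. The summed log2 signal of 8 pan-neuronal genes was 97.7, 96.2 and 96.9 on the 3 day 7 arrays, and that of 6 motor neuron genes was 35.8, 42.2 and 43.5. Of the 6 motor neuron genes 4 (Mnx1, Isl1, Isl2 and Slc18a3) rose from day 4 to day 7, beside 10.9% of all genes. Without replicate 5 the count was 3, beside 9.93% of all genes. Mnx1 was lost, going from 2.13 (limma adjusted p = 0.0086) to 1.73 (adjusted p = 0.041). All 8 pan-neuronal genes rose from day 4 to day 7 with and without replicate 5, with a list median of 3.74, led by Syt1 (log2 fold change 5.89, at least 39.5-fold), Map2 (4.26), Stmn2 (3.80) and Snap25 (3.78). Elavl3 and Elavl4 passed in other probe sets only. Their brightest probe sets were not called (1.36, limma adjusted p = 0.038, and 1.02, adjusted p = 0.067). Among the genes high on replicate 5, chosen after their values were seen, Lbx1 of dorsal inhibitory and excitatory classes read 2.24, 2.62 and 7.33 on day 7 and up to 4.72 on day 4 in probe set 1427400_at. Its other probe set, 1422323_a_at, read 2.24 on all 3 day 7 arrays, so the probe sets of Lbx1 disagree. Neurog2, a proneural factor of progenitors, read 3.46, 4.30 and 9.41 on day 7 and up to 11.47 on day 4. The part of any of these cell types in the inhibitory signals of replicate 5 was not tested.

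**Figure D3:**
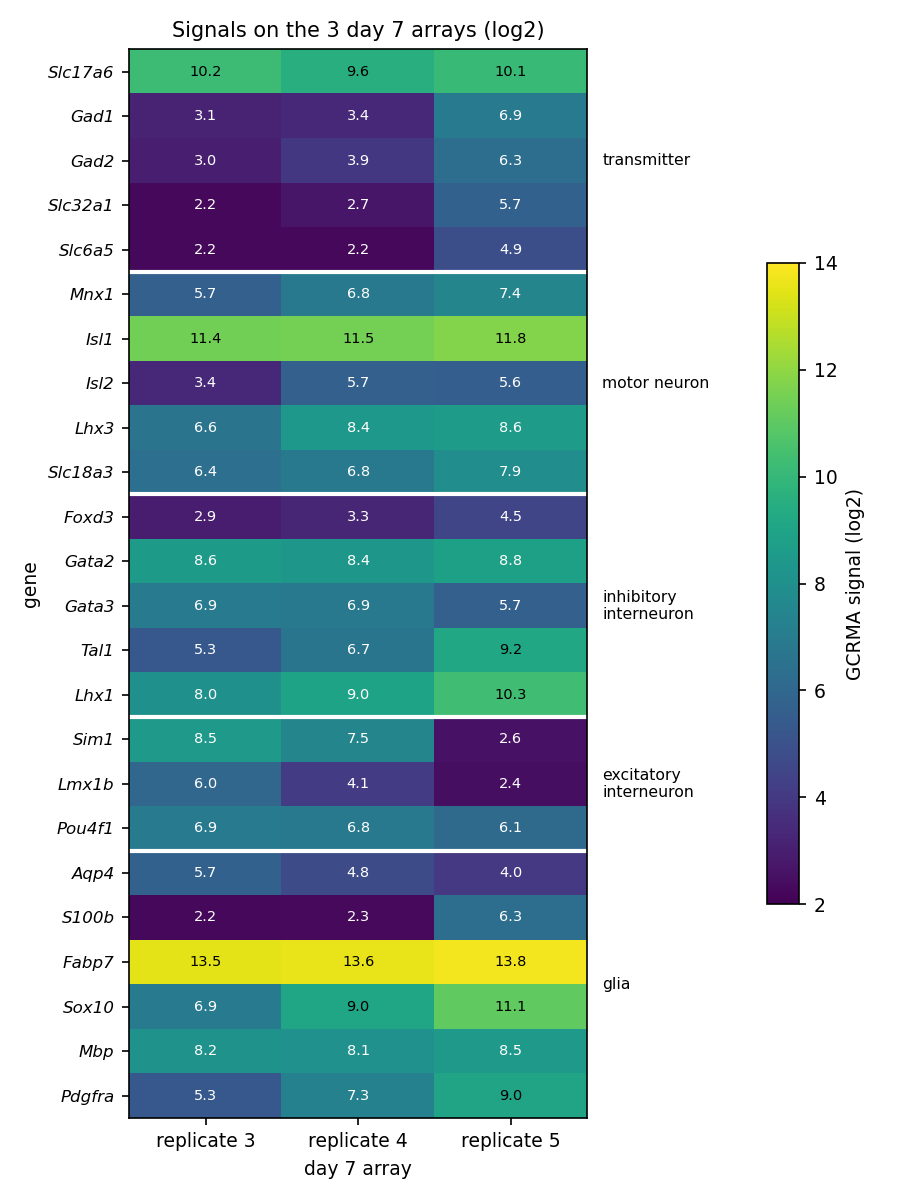
GCRMA signals (log2, number and colour) on the 3 day 7 arrays for 5 transmitter genes (the probe set of each with the highest day 7 signal) and for markers of motor neurons, interneurons and glia that reached 4 on at least 1 of these arrays (brightest probe set). Slc17a6, Isl1 and Fabp7 were similar on all 3 arrays, while Gad1, Gad2, Slc32a1, Slc6a5 and S100b were over 4 on replicate 5 alone and Sim1 and Lmx1b on the other 2 only.

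Over the 18 arrays the pattern of Slc17a6 was that of many genes which came on between day 4 and day 7. Of 8891 genes compared, 298 had a Pearson correlation of 0.95 or above with probe set 1428379_at. The genes compared had a highest group mean of 4 or more and group means at least 2-fold apart. Their range was not matched to that of Slc17a6. The 5 most alike, each at 0.999, were A430027H14Rik, Pcdhb10, Nbl1, Scn3b and Fxyd7. Scn3b encodes a subunit of voltage-gated sodium channels and read 9.47, 9.19 and 9.62 on day 7. Such a correlation rests on 1 step shared by 15 arrays against 3 and says nothing finer.

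The genes most like Gad1 and Gad2 were, in contrast, genes with a higher value on day 7 replicate 5. For Gad1 they were Marchf3 (0.882), Syt3 (0.856), Rgcc (0.851), Tcp11l2 (0.831) and Ddah1 (0.827). For Gad2 they were Slc16a14 (0.905), Hs3st2 (0.900), C1qtnf4 (0.900), Smc2os (0.897) and Tcp11l2 (0.896). Tcp11l2 stood in both lists and read 3.14, 3.58 and 6.47 on day 7. None reached 0.95 with either gene, and these correlations rest largely on 1 array.

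The other genes that handle GABA were measured beside the members. Of 5 genes of GABA uptake and breakdown 2 rose from day 4 to day 7 and 0 fell, with and without replicate 5, and the list median was 0.38 against 0.00 for all genes. Slc6a11, the GABA transporter GAT3, which astrocytes carry, read 2.26 on all day 4 arrays and 7.38, 7.54 and 8.20 on day 7 (log2 fold change 5.45, SE 0.14, limma adjusted p = 1.5e-11), at least 13.1-fold. Abat, the GABA transaminase that degrades GABA, went from 4.04, 5.89 and 6.28 on day 4 to 10.87, 10.83 and 10.59 on day 7, a 41.0-fold rise (log2 fold change 5.36, SE 0.51, adjusted p = 5.3e-06). Both genes were high on all 3 day 7 arrays, unlike Gad1 and Gad2.

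Of 6 measured genes of glycine handling 2 fell, against 8.17% of all genes, and 0 rose in the limma test (1 at an unadjusted p under 0.05), with a list median of -0.40. Shmt1, a serine hydroxymethyltransferase that interconverts serine and glycine, went from 9.85, 9.89 and 9.81 on day 4 to 6.99, 7.63 and 6.69 on day 7 and fell by 2.75 on the log2 scale (SE 0.25, limma adjusted p = 3.5e-06). Its mitochondrial counterpart Shmt2 fell by 2.09 (adjusted p = 0.0045) in probe set 1426423_at, while its brightest probe set was not called. Without replicate 5 Shmt2 missed the threshold (-2.15, adjusted p = 0.012) and the count that fell was 1. Slc6a9, the glial glycine transporter GlyT1, was bright throughout the last stages and read 9.59, 9.71 and 10.46 on day 4 and 11.13, 10.88 and 11.79 on day 7 (log2 difference 1.35, adjusted p = 0.071). Its other probe set differed by 1.55 (adjusted p = 0.05), and against ES cells Slc6a9 was called higher.

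No gene of glutamate synthesis passed the test, and some of glutamate uptake did. Of 4 measured genes of glutamate synthesis and breakdown 0 were called by limma from day 4 to day 7 (0 at an unadjusted p under 0.05, median -0.14), and all 4 were over background on every day 4 and day 7 array. Of 8 genes of glutamate and glutamine transport across the cell membrane 3 rose and 1 fell (median -0.04). Slc1a1, the neuronal glutamate transporter EAAC1, read 2.28, 2.24 and 2.24 on day 4 and 8.32, 8.16 and 10.78 on day 7 (log2 fold change 6.83, SE 0.64, adjusted p = 4.8e-06), at least 33.9-fold and brightest on replicate 5. Without that array its change was 5.98 (adjusted p = 3.3e-06), at least 18.8-fold. Slc1a3, the glial transporter GLAST, rose by 2.82 in probe set 1426340_at (adjusted p = 1.3e-04) and by 2.21 in 1443749_x_at. Its brightest probe set was not called (1.58, adjusted p = 0.013), and 2 others gave -0.64 and -0.96, so its probe sets disagree. Slc1a2, the glial transporter GLT-1, passed only in a probe set near background (1.0, at least 1.01-fold, adjusted p = 0.0027), and its brightest probe set gave -0.51. The glutamine transporter Slc38a1 fell by 1.54 in probe set 1415903_at (adjusted p = 0.0063), and its brightest probe set was not called (-0.39, adjusted p = 0.29). Without replicate 5 the calls of Slc1a2 (adjusted p = 0.012) and Slc38a1 (adjusted p = 0.029) were lost, leaving 2 genes that rose and 0 that fell.

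Of 4 cholinergic genes 2 rose, with and without replicate 5, where 10.9% of all genes were called higher. The vesicular acetylcholine transporter Slc18a3 read 2.24, 3.51 and 2.36 on day 4 and 6.40, 6.85 and 7.86 on day 7 (log2 fold change 4.33, SE 0.34, limma adjusted p = 8.2e-07), at least 8.19-fold. Ache, the acetylcholinesterase, read 2.26 on all day 4 arrays and 5.91, 4.97 and 6.84 on day 7 (3.65, SE 0.31, adjusted p = 1.7e-06), at least 3.75-fold. The choline transporter Slc5a7 read 4.02, 2.35 and 3.24 on day 7 (0.94, adjusted p = 0.028) and was not called, and Chat read 2.31, 2.88 and 2.24. Slc18a3 and Slc17a6 were therefore both over background on all 3 day 7 arrays, whereas the signal of Chat did not allow a statement. Of the 2 measured vesicular monoamine transporters, Slc18a1 and Slc18a2, 0 were called by limma (0 at an unadjusted p under 0.05).

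Subunits of the receptors for all 3 transmitters were among the genes that rose. Of 14 measured subunits of ionotropic glutamate receptors 8 rose and 0 fell (median 2.13), of 8 GABA-A receptor subunits 4 rose and 0 fell (median 1.21), and of 5 glycine receptor subunits 2 rose and 0 fell (median 0.60), beside the 10.9% of all genes called higher. Without replicate 5 the counts were 7, with Grik5 lost (adjusted p = 0.018), 4 and 3, with Glra1 added (1.16, adjusted p = 0.0047). The AMPA receptor subunit Gria4, at 4.12 to 4.59 on day 4, rose by 4.29 on the log2 scale, or 19.6-fold. The kainate receptor subunit Grik3, the AMPA receptor subunit Gria1 and the NMDA receptor subunit Grin2d were all under 4 on day 4 and rose at least 14.3-fold, 6.61-fold and 5.14-fold. Glra2, the glycine receptor subunit of immature neurons, read 2.24 on all day 4 arrays and 9.28, 8.83 and 9.83 on day 7 (log2 fold change 7.08, SE 0.17, limma adjusted p = 7.2e-12), at least 39.8-fold. Glrb, its partner subunit, rose by 2.47 in probe set 1422504_at (adjusted p = 0.0021), and its brightest probe set was not called (0.60, adjusted p = 0.66).

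The GABA-A receptor subunits that rose were Gabrg1 (at least 5.18-fold), Gabra3 (at least 5.34-fold), Gabra2 (at least 3.18-fold in probe set 1455444_at) and Gabrb2 (log2 fold change 4.32 in probe set 1428203_at). The brightest probe sets of Gabra2 (-0.24) and Gabrb2 (2.08, adjusted p = 0.24) were not called. Gphn, the gene of gephyrin, which anchors glycine and GABA-A receptors at synapses, rose by 1.80 in probe set 1426463_at (limma adjusted p = 0.0012), while its brightest probe set gave 0.57. The subunits named here were over 4 on all 3 day 7 arrays in the probe sets given, in contrast to Gad1, Gad2, Slc32a1 and Slc6a5.

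**Figure D4:**
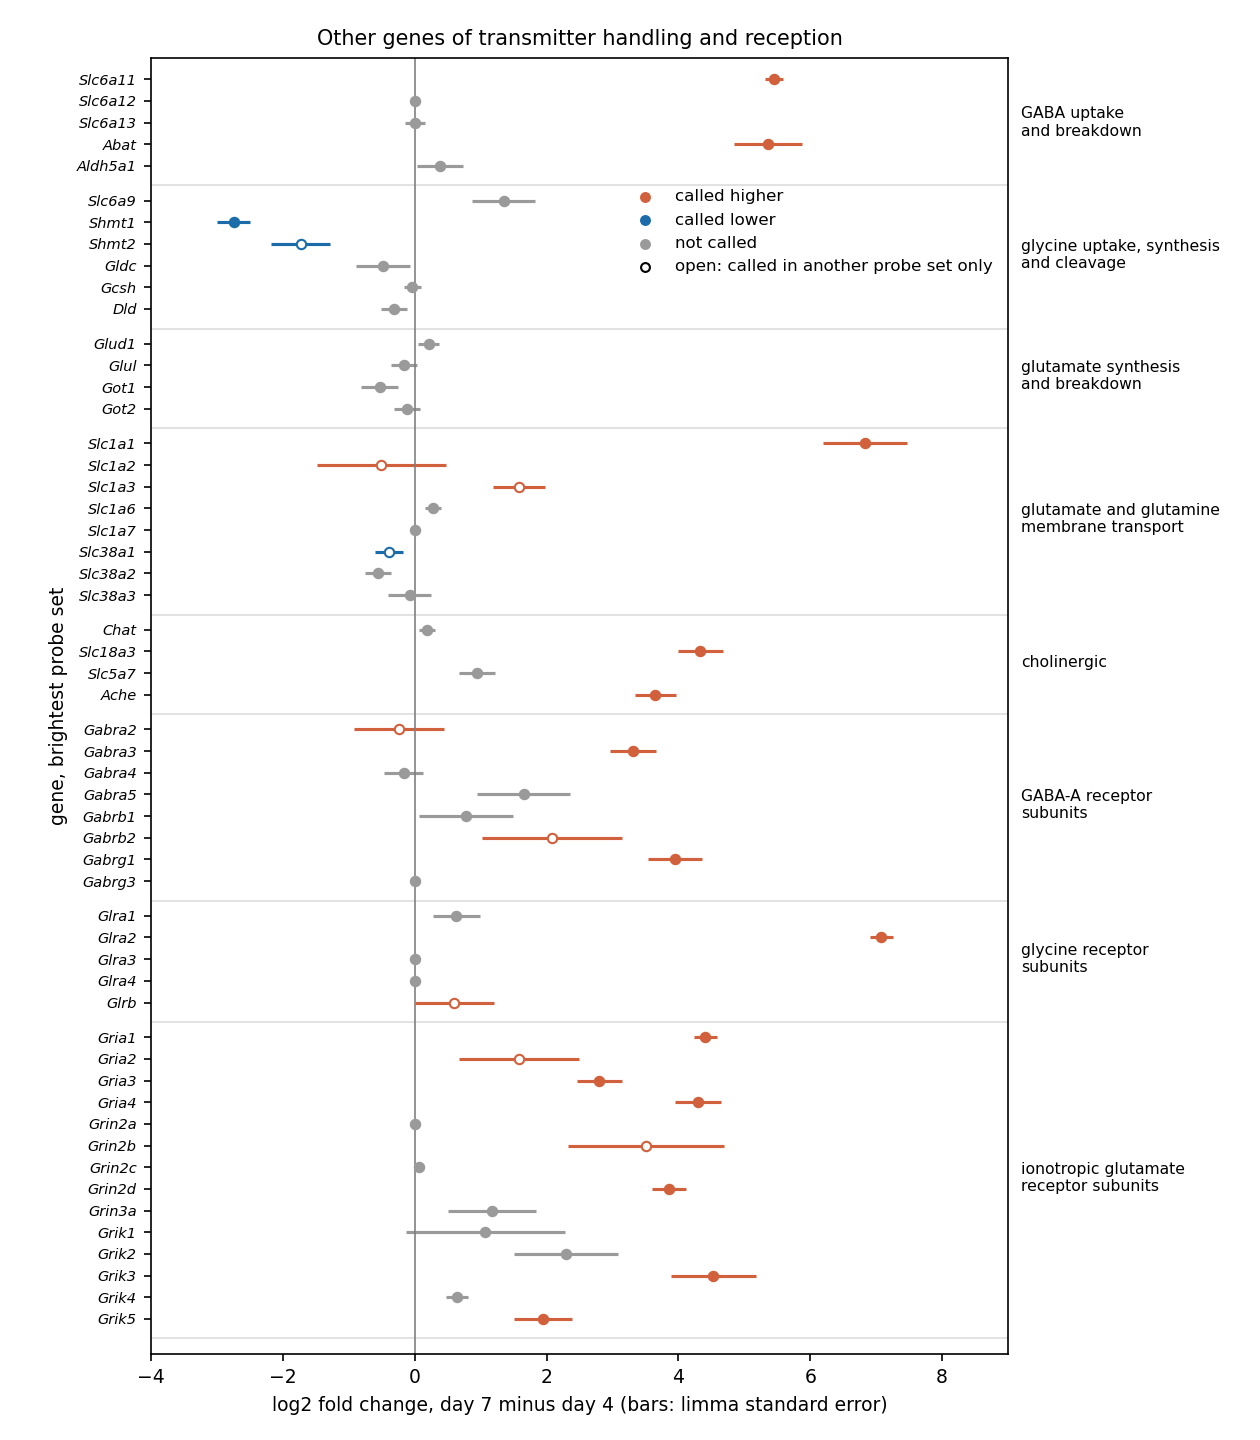
Log2 fold change from day 4 to day 7 (points, brightest probe set of each gene, with limma's standard error as bars) for genes of transmitter uptake, synthesis and breakdown and for receptor subunits, coloured by call and open where another probe set alone was called. Where the day 4 arrays lie under 4 the plotted change is a fitted difference that depends on the floor of the scale. Points of Slc1a1, Glra2, Slc6a11 and Abat lie at 5.36 or above, and the 4 genes of glutamate synthesis and breakdown lie between -0.53 and 0.21.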

How the data were processed

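RNA from cultures of HBG3 cells was amplified (NuGEN Ovation kit) and hybridized to Affymetrix mouse arrays by the authors, who normalized all arrays together with GCRMA. Per probe set, 1 log2 signal for each array was deposited, and these were used without change (45101 probe sets, 64 controls left out, lowest tested value 2.24). Arrays were grouped by the labels. Gene symbols came from the platform annotation: 34945 probe sets carry 1 symbol, 932 several and 9160 none. limma 3.58.1 in R 4.3.3 (lmFit, eBayes without trend or robust options) was fitted to 6 group means over 18 arrays (12 residual and 0.515 prior degrees of freedom), with Benjamini-Hochberg adjustment over 45037 probe sets, and checked on simulated data. The spread is pooled over stages, so a standard error can be too small or too large for a gene near the floor. The small number of arrays limits precision. Python 3.11.15 and matplotlib 3.10.9 were used for motifs and figures. Sequences and positions are from RefSeq (GRCm38.p6).

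The members and lists were chosen with earlier results of these data known. Named genes are every member, up to 4 called genes per list with the largest change of the brightest probe set from day 4 to day 7 (the highest mean over all arrays), the cholinergic genes, and the 5 genes most correlated with each member that reached a group mean of 4. Alternatives were a fit of 2 groups only, the replicate block, trend and robust moderation, dim values raised to 4 or dim probe sets left out, quantile normalization, median centring, probe sets averaged, the brightest only or without s, x and a suffixes, an adjusted p under 0.05, each array left out, and, chosen after the data were seen, array weights and the gene lists without day 7 replicate 5. Arrays with the same replicate number deviated together from day 2 to day 3 (correlations 0.48, 0.35 and 0.48) and from day 3 to day 4 (0.64, 0.42 and 0.75).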

Additional observations from a re-analysis of the deposited data

Results flagged for a closer look

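In 5 sets of 4 day 2 arrays, 1 array lay far from the other 3, all of them under the background level of 4. For normally distributed values chance gives such a flag in about 1 of 20 groups. That rate does not hold for values tied at the floor, so the number of flags cannot be set against it. Slc32a1 read 3.43 in probe set 1447574_s_at and 3.10 in 1456457_at on 1 day 2 array each, against lowest values of 2.54 and 2.69. Gad1 read 2.27 in 1416562_at and Gad2 read 2.27 in 1421978_at, steps of a few hundredths at the floor of the scale. Slc17a6 read 2.24 in 1428379_at on 1 array, below the other 3, which reached 2.53.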

How the results depend on the processing

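From day 4 to day 7, and from day 0 to day 7, the count of members called was 1 (Slc17a6) in all alternatives but 2. It was 2, with Gad2 added, at an adjusted p under 0.05 and without day 7 replicate 3, so that it ranged from 1 to 2 when single arrays were left out. In the 4 earlier comparisons it was 0 in all alternatives. The calls over all genes moved more: with the arrays of 2 groups only they went from 814 to 66 between day 0 and day 2, from 79 to 8 after RA, from 1402 to 651 between day 2 and day 3, from 258 to 17 between day 3 and day 4, from 3456 to 1291 between day 4 and day 7 and from 6022 to 3427 between day 0 and day 7. At an adjusted p under 0.05 they were 1348 between day 0 and day 2 and 441 between day 3 and day 4, array weights gave 2384 between day 2 and day 3, and leaving out day 3 replicate 1 or day 4 replicate 2 gave 168 or 171 between day 3 and day 4. The causes were not tested.

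With the replicate block, fitted to the arrays of 2 groups with shared numbers, 0 members and 0 genes in all were called by limma in each of the 4 earlier comparisons. The correlations of same-numbered arrays were 0.21, -0.20 and -0.13 between day 0 and day 2 and -0.22 and -0.45 for RA. Deviations from the means of such small groups cannot settle whether same-numbered arrays share a culture, and the labels do not say. No paired analysis was possible because day 7 shares 1 replicate number with day 4 and with day 0.

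Signal over background limits these results: 7 of 13 probe sets never reached 4, and differences under it cannot be read as levels.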

Other observations

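Bcan, the gene of the proteoglycan brevican, was chosen after its values were seen as another gene that was high on day 7 replicate 5 alone. It read 2.62, 2.78 and 9.11 in probe set 1441899_x_at and 2.24, 2.24 and 6.75 in 1416718_at on replicates 3, 4 and 5, and it lay at or under 2.75 on the 15 arrays of earlier stages.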
